A study of Mus musculus with 7 samples.

Results

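*Adnp2*, *Crem*, *Mib1*, *Usp15*, *Hgsnat*, *Tecpr1*, *Synj2bp*, *Ift81* and *Spata13* are known from mouse cells without TDP-43 as genes that gain cryptic exons, stretches spliced into the mRNA that are not normally exons. These 9 genes, of 37310 in the count table, were taken by name as known targets, with earlier results of these data known. Their levels were compared between genotypes. All 9 had enough reads to be tested.

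TDP-43, the protein of *Tardbp*, binds UG-rich stretches of RNA, many of them in introns, and keeps the splicing machinery from using sequence that is not a normal exon. When TDP-43 is lost, such sequence can be spliced into the mRNA as a cryptic exon, which often brings in an early stop codon and sends the transcript to nonsense-mediated decay, and in other cases leaves it stable or alters its ends.

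RNA was sequenced from whole mammary glands at lactation day 1 (L1), with 3 WT and 4 Tardbp KO libraries of female mice of the strain C57BL/6. By the study's methods, WT mice carry WAP-Cre on intact *Tardbp* and KO mice carry WAP-Cre on *Tardbp* fl/fl, so Cre is present in both groups. Cre under the whey acidic protein promoter acts in luminal epithelial cells from mid-pregnancy on and removes exons 2 and 3 of *Tardbp*, while the other cells of the gland keep the gene, and the ages of the mice are not given. Libraries held between 36007737 and 42811337 counted reads. The labels do not say whether replicates are separate mice, though the study counts them as mice, and p-values measure the spread between these libraries.

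Levels below are in CPM, read counts relative to the library's total after TMM scaling, and differences are log2 fold changes of KO minus WT. Reads were counted per gene over annotated exons. A read that lies wholly in a cryptic exon therefore falls outside the count unless the annotation holds that stretch as an exon, and inclusion of a cryptic exon was not measured here. What the data give is the total exonic level of each target. In bulk tissue, fewer cells of a type and less RNA per cell cannot be told apart.

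*Tardbp* itself (minus strand of chromosome 4) was measured at 223, 178 and 159 CPM in the WT libraries, in the order of their replicate numbers, and at 214, 176, 154 and 208 CPM in the KO libraries. The groups overlapped over almost their whole range, with a log2 fold change of 0.01 (SE 0.182, with edgeR's quasi-likelihood test giving an adjusted p of 0.982). Exons of *Masp2* on the other strand cover 24.3% of its exon bases, and the counts are not split by exon, so the gene's count is no check of the deletion. The genotypes below are those of the labels.

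UG repeats, written TG in DNA, were looked for as runs of at least 6 TG dinucleotides on the transcribed strand between the first and last exon base of each gene (motif TGTGTGTGTGTG, NCBIM37). The windows below show, for 6 of the targets, the first bases of the longest intronic run, because these repeats are the sequence that TDP-43 recognises. Each window is 30 bases long, 5′ to 3′ on the transcribed strand, and begins 6 bases before the run, whose bases are in capitals.

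*Synj2bp*, intron 1, minus strand, chr12:82633302-82633331: cggcggTGTGTGTGTGTGTGTGTGTGTGTG

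*Spata13*, intron 4, plus strand, chr14:61338542-61338571: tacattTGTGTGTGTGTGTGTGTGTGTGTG

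*Hgsnat*, intron 1, minus strand, chr8:27084908-27084937: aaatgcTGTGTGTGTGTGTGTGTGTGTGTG

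*Ift81*, intron 7, minus strand, chr5:123052016-123052045: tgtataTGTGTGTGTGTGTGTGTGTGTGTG

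*Tecpr1*, intron 16, minus strand, chr5:144964096-144964125: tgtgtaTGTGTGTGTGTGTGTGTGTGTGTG

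*Usp15*, intron 7, minus strand, chr10:122587993-122588022: tagaggTGTGTGTGTGTGTGTGTGTGTGtc

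The full runs hold 25 TG dinucleotides in *Synj2bp*, 24 in *Spata13*, 21 in *Hgsnat* and in *Ift81*, 12 in *Tecpr1* and 11 in *Usp15*. The windows of *Tecpr1* and *Usp15* hold the whole run, and the others its beginning.

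Every one of the 9 genes held a run of at least 10 TG on the transcribed strand. Such a run is common in mouse genes of this size: 54.6% of the 17165 genes tested and 90.0% of the 7334 tested genes at least as long as the shortest target have one. The targets are long, with a median span of 64.3 kb against 18.8 kb over all genes tested. In all they held 62 runs of at least 6 TG on the transcribed strand and 50 on the other strand, where they read CA. More runs on the transcribed strand are general: all genes tested held 86898 and 67026, and the long ones 79056 and 61166. Their median density was 11.8 TG runs per 100 kb, against 6.40 over all genes tested and 9.46 over the long ones. *Mib1* stood out among the targets with 11 runs on the transcribed strand and 0 on the other, and *Tecpr1* had the reverse order, with 3 and 11.

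**Figure D1:**
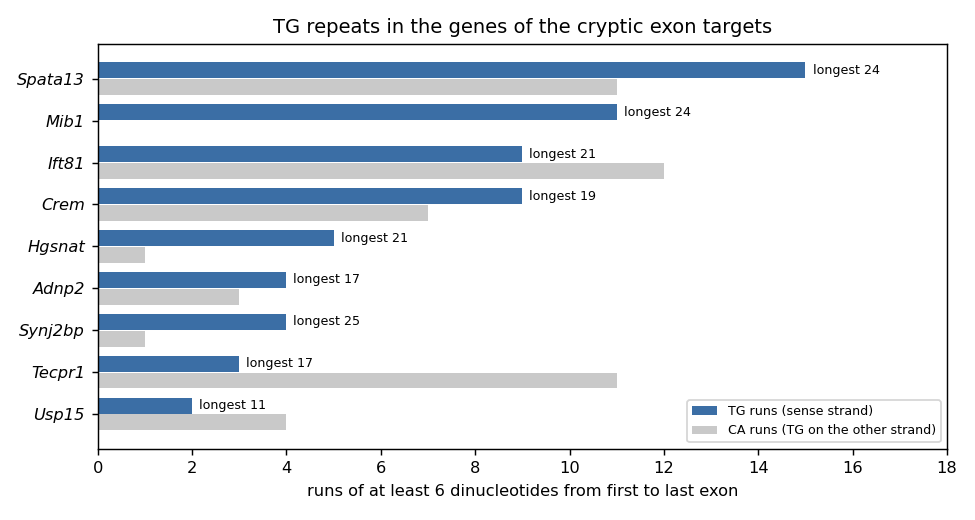
Number of runs of at least 6 TG dinucleotides (blue) and of at least 6 CA dinucleotides (grey, a TG run on the other strand) in each of the 9 targets, from the first to the last exon base, with the length of the longest TG run in dinucleotides beside the bar. *Spata13* has the most TG runs, 15, and *Usp15* the fewest, 2.

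Some intronic runs lie close to annotated exons, and those named here were picked from all runs of the targets. Others lie far off, such as a run of 17 TG in *Crem*, 12723 bases after an exon and 13297 before the next. Nearness to exons was not compared with that in all genes tested. A run of 13 TG in *Ift81* begins 40 bases after exon 13 of its longest coding transcript, and the run of 21 shown above begins 238 bases after exon 7. In *Tecpr1* the run of 12 begins 158 bases after exon 16, in *Hgsnat* a run of 19 begins 311 bases after exon 17, and in *Synj2bp* the run of 25 begins 378 bases after exon 1. *Adnp2* has runs of 17, 17 and 16 TG in its introns 1, 2 and 3, the one in intron 2 ending 539 bases before the next exon. In *Mib1* and *Spata13* the 3′ UTR also holds runs, of 24 and of 22 TG. These are matches of letters in the reference and no measure of binding.

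The 9 targets did not move together. The study's methods ask for an adjusted p below 0.01 together with a change of more than 1 on the log2 scale, in either direction. At these limits edgeR's quasi-likelihood test called 0 targets and 0% of all genes, edgeR's exact test 0 targets and 2.48%, its likelihood ratio test 0 targets and 2.69%, and DESeq2 0 targets and 3.69%. At an adjusted p under 0.05 with no fold limit, the quasi-likelihood test of edgeR called 0 targets and 0.00583% of all genes, which is 1 gene. At an unadjusted p under 0.05 in the same edgeR test, 2 targets were higher in KO libraries (*Adnp2* and *Ift81*) and 3 lower (*Synj2bp*, *Mib1* and *Usp15*), while 21.4% of all genes tested passed that limit, 10.7% higher and 10.7% lower. All KO libraries lay above all WT libraries for 1 target and below them for 3, beside 9.07% of all genes tested above and 9.6% below, 18.7% in all. The median log2 fold change over the targets was −0.20, against 0.05 over all genes tested, and 5 of the values were negative and 4 positive. Without the fold limit, edgeR's exact test passed *Adnp2* (adjusted p = 0.000754) and *Synj2bp* (adjusted p = 0.00786), beside 3.28% of all genes, 1.24% higher and 2.04% lower. DESeq2 passed these and *Mib1*, beside 5.44% of the genes it gave an adjusted p.

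**Figure D2:**
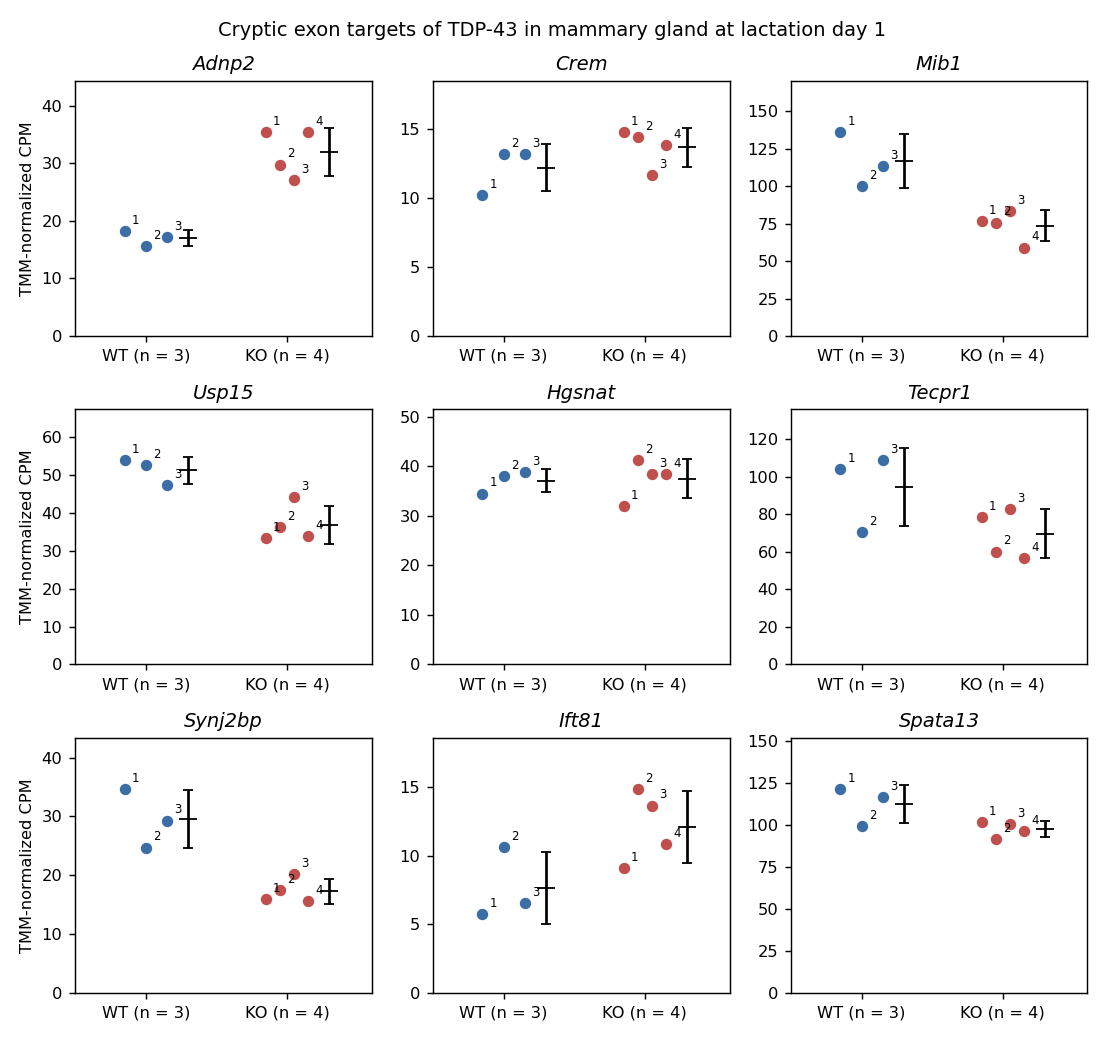
TMM-normalized CPM of each target in the 3 WT (blue) and 4 KO (red) libraries, numbered by replicate, with mean and SD in black; each axis starts at 0. *Adnp2* is higher in all KO libraries, *Mib1*, *Usp15* and *Synj2bp* are lower in all, and the other targets overlap.

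The nuclear targets come first. *Adnp2* (ENSMUSG00000053950, minus strand of chromosome 18, 80323874 to 80348221) encodes a zinc finger and homeobox protein, a relative of the neuroprotective protein ADNP. Its level was 18.3, 15.6 and 17.2 CPM in the WT libraries and 35.5, 29.8, 27.2 and 35.4 CPM in the KO libraries. The 2 groups were far apart, and within each the libraries were close, with an SD of 7.87% of the mean in WT and 13.1% in KO.

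The log2 fold change of *Adnp2* was 0.91 (SE 0.154, 95% interval 0.56 to 1.26), a 1.88-fold higher level in KO libraries. Its unadjusted p of 0.000240 in edgeR's quasi-likelihood test ranked 58th of all genes tested, with an adjusted p of 0.0652, and a 2-sided exact permutation test gave p = 0.0286, the smallest that 3 libraries against 4 allow. No other annotated gene overlaps its exons, and the annotation holds 1 transcript of 4 exons, so the count is not shared between annotated forms or genes. A form with a cryptic exon would add to the same count and cannot be told apart in it. Over the alternatives its difference ran from 0.83 to 1.27, and the adjusted p in edgeR or DESeq2 from 0.000140 to 0.579.

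*Crem* (ENSMUSG00000063889, minus strand of chromosome 18, 3266046 to 3337746) encodes a cAMP-responsive transcription factor with activating and repressing forms, the short repressor ICER among them. The WT libraries had 10.2, 13.2 and 13.2 CPM and the KO libraries 14.8, 14.5, 11.7 and 13.8 CPM. The groups overlapped because KO replicate 3 lay below 2 of the WT libraries, and the log2 fold change was 0.16 (95% interval −0.23 to 0.56, adjusted p = 0.639 in edgeR's test). The annotation lists 41 transcripts of *Crem* over 18 exon blocks, and a shift between its forms would not be seen in this sum.

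Of the ubiquitin enzymes, neither passed an adjusted limit in the quasi-likelihood test, and in both the KO libraries lay below the WT libraries. *Mib1* (ENSMUSG00000024294, plus strand of chromosome 18, 10725546 to 10818702) is the ubiquitin ligase that lets Notch ligands be taken up by the cell that sends the signal. It had 136, 100 and 114 CPM in WT libraries against 76.6, 75.7, 83.2 and 59.0 CPM in KO libraries. Every KO library was below every WT library, with a log2 fold change of −0.66 (SE 0.166, 95% interval −1.04 to −0.29, adjusted p = 0.0895 by edgeR and p = 0.0286 in the exact permutation test).

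*Usp15* (ENSMUSG00000020124, minus strand of chromosome 10, 122550286 to 122634017) removes ubiquitin and is known to stabilise TGF-β receptor signalling. Its WT libraries had 53.9, 52.7 and 47.3 CPM and its KO libraries 33.4, 36.4, 44.3 and 33.9 CPM. The groups did not overlap, but KO replicate 3, at 44.3 CPM, came close to the lowest WT library. The log2 fold change was −0.47 (SE 0.142, 95% interval −0.79 to −0.15, adjusted p = 0.121 in edgeR's test), and the exact permutation test gave p = 0.0571.

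The pair of lysosomal and autophagy genes gave no clear difference. *Hgsnat* (ENSMUSG00000037260, minus strand of chromosome 8, 27054931 to 27087216) encodes the lysosomal membrane enzyme that acetylates heparan sulfate so that it can be broken down further. It had 34.5, 38.1 and 38.9 CPM in WT and 32.0, 41.2, 38.4 and 38.5 CPM in KO libraries. These ranges lie on top of each other, and the log2 fold change of 0.01 has a 95% interval of −0.29 to 0.32 (adjusted p = 0.965 in edgeR's test).

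*Tecpr1* (ENSMUSG00000066621, minus strand of chromosome 5, 144955311 to 144984484) helps autophagosomes join lysosomes. Its levels were 104, 70.5 and 109 CPM in WT libraries and 78.5, 60.1, 82.8 and 56.8 CPM in KO libraries. WT replicate 2 lay among the KO libraries, and the log2 fold change of −0.44 (SE 0.203, 95% interval −0.90 to 0.02) had an unadjusted p of 0.0584 and an adjusted p of 0.252 in edgeR's test. Its intron 2 holds a run of 17 TG that lies in an annotated exon of the gene, so reads over that stretch are in its count. That exon belongs to a transcript not classed as protein coding, among the 11 listed.

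Of the remaining targets, *Synj2bp* (ENSMUSG00000090935, minus strand of chromosome 12, 82598928 to 82633898) encodes a PDZ protein of the outer mitochondrial membrane. It had 34.7, 24.7 and 29.3 CPM in WT libraries and 15.9, 17.5, 20.2 and 15.6 CPM in KO libraries. All KO libraries were lower, with a log2 fold change of −0.77 (SE 0.166, 95% interval −1.15 to −0.40, adjusted p = 0.0790 in edgeR's test, exact permutation p = 0.0286), the lowest of the 9 log2 fold changes.

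The annotation gives the name *Synj2bp* to a further gene ID, ENSMUSG00000021139, made mostly of read-through transcripts that run on into *Cox16*. Its counts were 4, 1 and 3 in WT libraries and 12, 5, 2 and 17 in KO libraries, too few for the filter. Exons of other genes cover 9.27% of the *Synj2bp* exon bases, mainly those of this read-through gene, and by the counter's default a read over 2 genes is given to neither. The level of *Synj2bp* is therefore a lower estimate in all libraries.

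*Ift81* (ENSMUSG00000029469, minus strand of chromosome 5, 123000213 to 123064527) is a subunit of the intraflagellar transport complex B, which carries tubulin into cilia. It had 5.76, 10.6 and 6.54 CPM in WT and 9.11, 14.9, 13.7 and 10.9 CPM in KO libraries. WT replicate 2 was above KO replicate 1, so the groups overlapped, and the log2 fold change was 0.67 (SE 0.274, 95% interval 0.05 to 1.29, unadjusted p = 0.0382 and adjusted p = 0.206 in edgeR's test). Without WT replicate 2 it was 0.98, and in sequencing lane 4, where that library is the only WT one, it was 0.18.

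*Spata13* (ENSMUSG00000021990, plus strand of chromosome 14, 61252838 to 61383393), also called Asef2, encodes a guanine nucleotide exchange factor. Its levels were 122, 99.5 and 116 CPM in WT libraries and 102, 91.7, 101 and 96.4 CPM in KO libraries. The groups overlapped, with a log2 fold change of −0.20 (95% interval −0.50 to 0.09, adjusted p = 0.408 in edgeR's test).

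**Figure D3:**
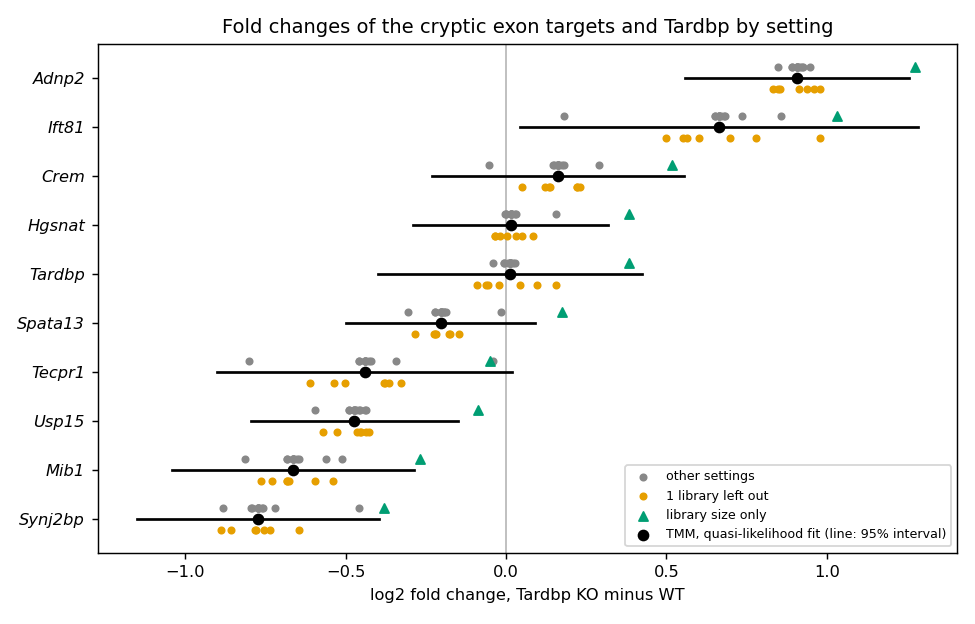
Log2 fold change (KO minus WT, x axis) of each target and of *Tardbp* in the TMM quasi-likelihood fit (black, with its 95% interval), with 1 library left out (orange), with scaling by library size only (green triangle) and in the other settings (grey). *Adnp2* lies above 0 in all settings and *Synj2bp*, *Mib1*, *Usp15* and *Tecpr1* lie below it, while *Spata13* turns positive with library size scaling.

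Per length, in CPM per kb of exon, the WT order of levels was *Usp15* at 15.7 ± 1.07 (SD, n = 3), *Hgsnat* at 13.9 ± 0.867, *Spata13* at 12.4 ± 1.27, *Mib1* at 11.3 ± 1.75 and *Tecpr1* at 9.76 ± 2.15. *Synj2bp* at 5.04 ± 0.851, *Adnp2* at 4.07 ± 0.320, *Ift81* at 2.21 ± 0.759 and *Crem* at 2.06 ± 0.292 CPM per kb followed. The steps from *Tecpr1* to *Synj2bp* and from *Adnp2* to *Ift81* were wider than the summed SDs of the neighbours, and all other neighbours lay closer together than that. In KO libraries *Adnp2* stood at 7.63 ± 0.996 CPM per kb (SD, n = 4), beside *Tecpr1* at 7.19 ± 1.34 and *Mib1* at 7.10 ± 0.993, and above *Synj2bp* at 2.94 ± 0.357.

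**Figure D4:**
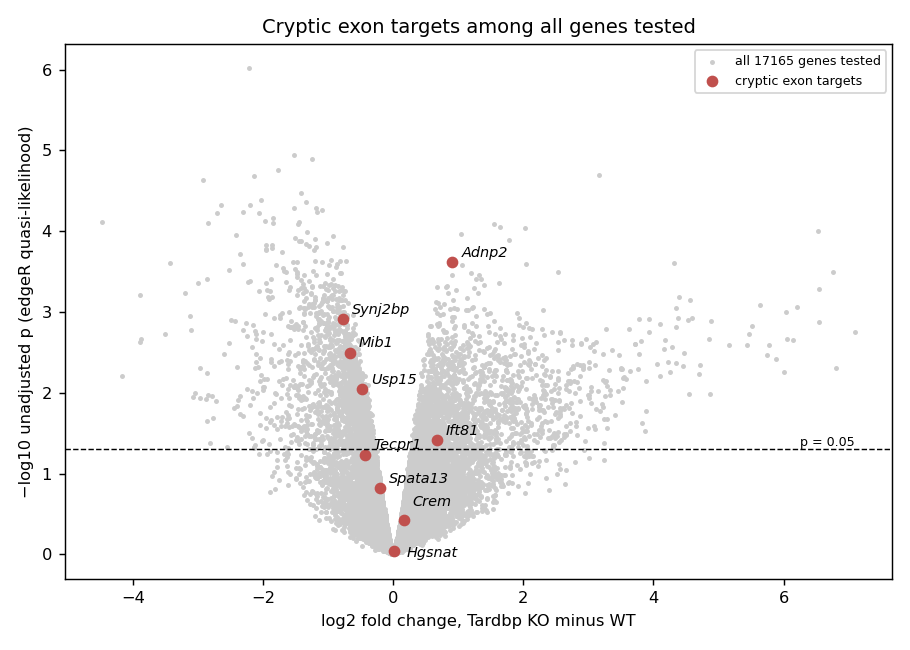
Log2 fold change (KO minus WT, x axis) against −log10 of the unadjusted p of edgeR's quasi-likelihood test (y axis) for all 17165 genes tested (grey) and the 9 targets (red, named), with a dashed line at the unadjusted limit used in the text. *Adnp2* is the highest red point, above the line with *Synj2bp*, *Mib1*, *Usp15* and *Ift81*, while *Hgsnat* is near the base.

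For each target, the gene whose log2 CPM, centred on its mean, was nearest over the 7 libraries was looked for among 9375 other genes with a mean of at least 10 CPM. The nearest to *Adnp2* was *Mtap4*, a microtubule-associated protein, with a root mean square difference of 0.151 on the log2 scale, which is wide beside the 0.0474 between *Synj2bp* and *Cadps2*. The others were *Rnf166* for *Crem* (0.0327), *Sdf4* for *Hgsnat* (0.0334), *Hccs* for *Spata13* (0.0414), *Lpcat2* for *Ift81* (0.0770), *Spop* for *Usp15* (0.0875), *Gstcd* for *Tecpr1* (0.0946) and *Ogfod1* for *Mib1* (0.0957). A target that varies little can have a small difference for that reason. The root mean square about the target's own mean was 0.448 for *Adnp2* and 0.400 for *Synj2bp*, but 0.134 for *Spata13* and 0.111 for *Hgsnat*.

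Genes that act with the targets were taken from lists made by function, with earlier results of these data known. In all lists below, 0 genes were called at the study's limits by edgeR's quasi-likelihood test, so their counts are at the unadjusted limit, which 10.7% of all genes tested passed as higher and 10.7% as lower. Nonsense-mediated decay factors degrade mRNAs with early stop codons, and of the 21 found in the file 0 were higher and 2 lower at an unadjusted p under 0.05 in edgeR's test, with a median log2 fold change of −0.10 against 0.05 over all genes, a count near that background. The lower ones were *Gspt1*, the release factor eRF3, with a mean of 146 ± 31.1 CPM in the 3 WT libraries and 102 ± 7.82 CPM in the 4 KO libraries (± SD, here and below), and *Nbas* (named after its values were seen), with 44.7 ± 11.6 and 27.3 ± 7.02 CPM. *Smg1*, the kinase of the pathway, had 141 ± 20.6 and 144 ± 28.4 CPM. Of 9 other splicing proteins that keep unannotated exons out of mRNA, 0 passed that limit. *Hnrnpk*, the most abundant, had 361 ± 30.3 CPM in WT and 330.0 ± 21.4 CPM in KO libraries, and *Ptbp2* had 17.4 ± 7.15 and 24.7 ± 1.20 CPM.

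Around *Mib1*, 3 of the 14 tested genes of Notch ligands, receptors and targets were higher in KO libraries at an unadjusted p under 0.05 in edgeR's test and 0 lower, beside 10.7% of all genes in each direction, with a list median of −0.05. None of them passed an adjusted limit. They were the receptor *Notch2* (34.2 ± 1.45 CPM in WT, n = 3, and 57.7 ± 13.9 CPM in KO, n = 4, adjusted p = 0.0954), the ligand *Jag1* (25.5 ± 4.63 and 37.8 ± 6.62 CPM) and the low *Neurl1a* (0.797 ± 0.0961 and 2.82 ± 2.71 CPM), the last pair named after their values were seen. *Notch1*, the most abundant of the list, had 118 ± 31.7 and 110 ± 2.42 CPM.

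Around *Ift81*, 14 other subunits of complex B were tested, of which 0 were higher and 1 lower at that limit. The lower one was *Ift20*, with 84.9 ± 12.8 CPM in WT and 58.4 ± 8.34 CPM in KO libraries (adjusted p = 0.123 in edgeR's test), the opposite direction to *Ift81*.

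Around *Crem*, 4 of 15 gene IDs of the CREB family and cAMP targets were higher and 0 lower at the same unadjusted limit, beside 10.7% of all genes in each direction, with a median of 0.29 against 0.05 over all genes. None of them passed an adjusted limit in that test. *Crtc3*, a coactivator of CREB, had 19.8 ± 1.67 CPM in WT and 31.9 ± 4.09 CPM in KO libraries, with no overlap (adjusted p = 0.0798 in edgeR's test). The others, named after their values were seen, were *Fos* (26.0 ± 7.45 and 68.3 ± 31.4 CPM), *Crtc2* (38.6 ± 9.65 and 53.6 ± 2.31 CPM) and *Pde4b* (a log2 fold change of 0.77). *Per1*, the most abundant of the list, had 104 ± 28.3 and 87.7 ± 24.8 CPM.

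Around *Hgsnat*, 0 of 7 other lysosomal genes of heparan sulfate breakdown passed, with *Idua* at 11.1 ± 4.63 CPM in WT and 15.9 ± 2.71 CPM in KO libraries. Around *Tecpr1*, 1 of 8 genes of ATG12 conjugation and *Tecpr2* was lower and 0 higher. That gene was *Atg3*, which joins lipid to the LC3 proteins, with 55.4 ± 7.74 CPM in WT and 38.8 ± 3.58 CPM in KO libraries, while *Wipi2*, the most abundant, had 95.7 ± 8.23 and 116 ± 6.26 CPM. Of 3 relatives of *Usp15*, *Usp11* was higher (2.14 ± 0.583 and 5.47 ± 2.18 CPM, adjusted p = 0.100 in edgeR's test) and *Usp4*, its close paralog, had 83.6 ± 8.67 and 72.9 ± 5.29 CPM.

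Luminal epithelial markers, which define the gland and the cells with Cre, were present in all libraries, with a summed level of 2823 to 3698 CPM in WT and 3127 to 4494 CPM in KO. Of the 8, 3 were higher at an unadjusted p under 0.05 in edgeR's test (*Cdh1* at 144 ± 23.5 and 246 ± 31.1 CPM, and *Krt8* and *Cldn3*, named after their values were seen) and *Elf5*, the most abundant, was lower (1058 ± 46.6 and 704 ± 189 CPM).

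Of the lymphocyte markers, all 10 were higher at that limit, and their summed level was 57.6, 47.8 and 40.4 CPM in the WT libraries, against 426, 67.3, 579 and 129 CPM in the KO libraries. The most abundant was *Ighm*, at 17.7 ± 4.07 CPM in WT and 86.5 ± 67.8 CPM in KO libraries, and *Cd79a* had the lowest p, at 0.729 ± 0.0984 and 36.8 ± 32.9 CPM. *Adnp2* was at 35.5, 29.8, 27.2 and 35.4 CPM in the KO libraries, in the same order of replicates. With the mean lymphocyte level as a covariate its log2 fold change was 0.92 (unadjusted p = 0.00417, adjusted p = 0.579 in edgeR's test). With that covariate *Synj2bp* was at −0.88, *Mib1* at −0.81, *Usp15* at −0.60, *Tecpr1* at −0.80 and *Spata13* at −0.31. *Ift81* was at 0.86, *Crem* at 0.29 and *Hgsnat* at 0.16. The lymphocyte sum was higher in every KO library than in every WT library, so this fit cannot separate it from genotype. The part of lymphocytes in the levels of the targets was not tested.

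The other cell types gave 0 markers past an unadjusted p of 0.05 in edgeR's test. Macrophage markers summed to 234 to 1390 CPM in WT and 828 to 2359 CPM in KO libraries. *Cd14* alone gave 135 to 1299 CPM of this in WT and 680 to 2263 CPM in KO libraries. The sum is therefore mainly the level of that gene and no measure of macrophages. All 7 macrophage markers had a positive log2 fold change, with a median of 0.52 against 0.05 over all genes tested. Myoepithelial markers summed to 1129 to 1925 and 979 to 2894 CPM, with *Acta2* the most abundant and *Krt5* the lowest in p. Adipocyte markers summed to 2028 to 2792 and 2179 to 3566 CPM, with *Fabp4* and *Lipe* in these places. Endothelial markers (*Cdh5* and *Emcn*) summed to 286 to 435 and 225 to 431 CPM, fibroblast markers (*Col3a1* and *Dcn*) to 972 to 2740 and 676 to 2939 CPM, and the 4 skeletal muscle markers tested, *Mylpf* among them, to at most 4.73 CPM. Their part in the levels of the targets was not tested.

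The sequencing lanes named in the file's header were largely confounded with genotype, since lane 4 alone held both, with WT replicate 2 and KO replicates 3 and 4. Within lane 4, with no test, the log2 difference was 0.95 for *Adnp2*, −0.46 for *Synj2bp*, −0.51 for *Mib1* and −0.44 for *Usp15*. *Tecpr1* (−0.04) and *Spata13* (−0.01) were close to 0 there and *Crem* stood at −0.05. Scaling by library size alone raises the median log2 fold change of all genes from 0.05 to 0.42. The targets moved up with it and kept their order, with *Adnp2* at 1.27, *Usp15* at −0.09, *Mib1* at −0.27 and *Synj2bp* at −0.38.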

How the data were processed

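The deposited values are raw counts without normalization. The authors mapped paired-end reads to NCBIM37 with STAR (2.5.2a in the submitters' processing notes, another version in the paper) and counted them on exons with featureCounts 1.4.6-p5 and GENCODE vM1, with no option set for strand, pairs or multimapping reads. All 37310 genes have the annotation's coordinates. The command line names 8 libraries, of which 7 have a column. The gene length column holds exon bases.

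Libraries were grouped by their titles. Mitochondrial genes (37), ribosomal protein genes and rRNA genes (590) were removed, as were genes that did not reach 5 counts in 4 or more libraries. The remaining 17165 genes were tested with edgeR 4.0.16 (R 4.3.3, TMM, quasi-likelihood test, Benjamini-Hochberg adjustment over all genes). Exact permutation tests are 2-sided, over 35 splits of log2 CPM with 1 added. Named genes are the 9 targets, *Tardbp*, the gene of lowest p and the most abundant gene of each list, and the nearest gene to each target. A list gene that this rule names is not reported here. Of 162 list symbols, 2 were not found by name. The targets, lists and tests were chosen with earlier results of these data known. Alternatives were DESeq2 1.42.0, other edgeR tests, scalings, filters and limits, a replicate block, a lymphocyte covariate, lane 4 alone and leaving out each library. TG runs were read from the NCBIM37 genome. Cryptic exon positions were not used here. The fit was tested on simulated data.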

Additional observations from a re-analysis of the deposited data

Results flagged for a closer look

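Among 39 genes checked, the targets included, 1 had a KO library far from the other KO libraries by Dixon's gap test at 95%, which flags about 1 in 20 such groups by chance. *Acta2*, smooth muscle actin of the myoepithelium, had 1442 CPM in KO replicate 1 against 369 to 512 CPM in the other KO libraries. None of the 9 targets and not *Tardbp* had such a library.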

How the results depend on the processing

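In every alternative run with a test 0 targets were called at the study's limits. An adjusted p under 0.05 without a fold limit was applied to the main fit only, with 0 targets called. Other runs had targets under an adjusted p of 0.05. In the quasi-likelihood test these were *Synj2bp* (0.0317), *Adnp2* (0.0375) and *Mib1* (0.0486) without WT replicate 2. *Adnp2* was also at 0.0389 with no filter on low counts and at 0.0438 with the replicate block. The exact and likelihood ratio tests put *Adnp2*, *Synj2bp* and *Mib1* under 0.05, and DESeq2 these and *Usp15*. Only with library size scaling did targets pass the fold limit, *Adnp2* at 1.27 and *Ift81* at 1.03. In the other runs at the study's limits, the fold limit alone therefore fixed the 0. Over all genes, the main count of 0 became 1 with no filter on low counts, 1 at an adjusted p under 0.05 without a fold limit, 425 with edgeR's exact test, 462 with its likelihood ratio test and 571 with DESeq2, and the cause was not tested. The median log2 fold change of the targets was 0.17 with library size only, −0.31 with the lymphocyte covariate, −0.04 within lane 4 and between −0.29 and −0.15 with 1 library left out, lowest without WT replicate 2 and highest without WT replicate 1. *Adnp2*, *Ift81*, *Synj2bp*, *Mib1*, *Usp15* and *Tecpr1* kept their sign in all 20 alternatives. *Spata13* turned to 0.17 with library size only and *Crem* to −0.053 within lane 4. Near 0, *Hgsnat* was at −0.00060 with DESeq2 size factors, −0.00066 in DESeq2 and −0.0037 with the replicate block, and *Tardbp* at −0.0051, −0.0050 and −0.040. With 1 library left out, *Hgsnat* lay between −0.036 and 0.084 and *Tardbp* between −0.091 and 0.16. Libraries of the same replicate number shared deviations from their group means at r = 0.437, 0.0746 and −0.0836, and KO replicates 2 and 3 correlated best with another number, so the numbers were not taken as pairs. With the replicate number as a block, 0 genes and 0 targets were called and the median of the targets was −0.19. All 9 targets held a TG run at a shortest length of 6 or 10, and 8 on the other strand. At these depths the targets' lowest count was 153, for *Ift81* in WT replicate 1, and markers and list genes near 1 CPM rest on few reads.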
